A study of Conyza sumatrensis with 22 samples.

Results

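In Conyza sumatrensis, a fleabane that grows as a weed of crops, the labels call populations T and S sensitive to the herbicide 2,4-D, and the leaf response of T to spraying is described here across all expressed genes. The members were chosen by label alone: 8 of the 22 leaf libraries of the series, 4 taken before treatment and 4 taken 5 h after spraying with 2,4-D (1005 g active ingredient on each hectare). PolyA RNA was sequenced in all of them. Population S, also sensitive, has 3 untreated and 4 treated libraries, and the resistant population R has 4 untreated and 3 treated, under the same treatment. The labels give neither plant age nor clock time. They do not say whether each library is a plant of its own, and the p-values rest on the spread among libraries, part of which may be technical. No group was sprayed without herbicide, and the effects of 2,4-D, of spraying and of the time between samplings cannot be told apart.

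2,4-D is a synthetic auxin. In flowering plants auxin is perceived by F-box receptors that mark Aux/IAA repressors for degradation, which frees auxin response factors to act on their target genes. Textbook early targets are the Aux/IAA repressors themselves, the GH3 enzymes that conjugate auxin to amino acids, and the small SAUR proteins that act in cell expansion. Excess auxin also raises the synthesis of ethylene and abscisic acid in sensitive broadleaved plants. The deposited tables carry running identifiers for the gene models and do not pair them with gene names, so none of these families could be picked out, the leaf label could not be checked against marker genes, and no sequence is shown. At most 2 identifiers per direction are given for each comparison, and other genes are described by rank, size of change, level or coding length. In bulk leaf RNA, a change in the share of a cell type and a change in RNA per cell cannot be told apart.

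The T libraries held 19.2 M to 21.8 M assigned reads, and between 24009 and 24813 gene models had at least 1 count. Treated libraries 3 and 4 stand apart in how their files were made. For long transcripts, the difference between length and effective length is about the mean fragment length that the quantifier worked with. Its median over long transcripts was exactly 250 bases in both of these libraries, which is the preset value of Salmon. In the other 20 libraries of the series this median lay between 236.42 and 264.65 bases, with a different value in each. A 300-base model had an effective length of 51.3 bases in treated T libraries 3 and 4, against 57.3 to 73.5 bases in the other T libraries, which raises the TPM of short models in these 2 libraries. Reads on transcripts with split counts made up 26.1% and 26.7% of them, against 29.3% to 41.7% in the other 20. Of 45437 gene models, 37 with at least 20 counts in all stood more than 2-fold above all other 20 libraries in both, and 43 more than 2-fold below. Among the 37, 2 had no count in any of the other 20 libraries. In the response of T described next, 7 of the 37 were called higher and 1 of the 43 lower, against 9.56% and 5.76% of all tested genes. No other pair of libraries was counted in this way, so whether 37 and 43 are unusual is not known. Both preset libraries are treated, so their processing cannot be told apart from a stronger response within the treated group. Most counts and named genes are therefore also given without these 2 libraries, either from a fit of treated libraries 1 and 2 against the 4 untreated ones or over the genes also called in that fit. No pair of T libraries was identical, and no pair agreed within sampling noise.

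At 5 h after spraying, 1937 genes rose and 1168 fell in T, out of 20264 tested (edgeR quasi-likelihood test on the 8 T libraries, adjusted p under 0.05), so that 15.3% of tested genes were called, 9.56% higher and 5.76% lower. Rises were larger than falls. The median log2 fold change was 1.02 among genes that rose, with a median standard error (SE) of 0.20, and -0.73 among those that fell, with a median SE of 0.16. Changes of 2-fold or more were called for 989 higher and 352 lower genes, which is 4.88% and 1.74%, or 6.62% in all, of those tested. At 8-fold or more there were 190 higher and 9 lower genes, and at 32-fold or more 32 higher and 0 lower. Treated and untreated libraries did not overlap in 88.8% of the genes that rose and 91.8% of those that fell, against 11.8% and 9.95% of all tested genes in the same 2 directions. With upper-quartile scaling the split was 1699 higher and 1613 lower. Without treated libraries 3 and 4, 911 genes rose and 316 fell (4.34% and 1.51%, or 5.85% in all, of 20979 tested). Of the 1937, 844 were also called higher without them, and of the 1168, 257 were also called lower. No gene was called in the opposite direction. Of the 1937, 1935 had a value in this smaller fit, and all of these and all 1168 kept their sign. The smaller fit reuses the untreated libraries and treated libraries 1 and 2, so kept signs are no independent support. A fit on fewer libraries has less power, so a lost call does not by itself show an unstable change. The counts of called genes also changed when single libraries were left out. They were 1344, 1454 and 1569 in all without untreated libraries 2, 3 and 4, 5639 without treated library 1 and 1507 without treated library 3. At least 2-fold changes numbered 870 and 883 without untreated libraries 2 and 3, 2493 without treated library 1, 848 without treated library 3 and 773 (3.68% of those tested) without both preset libraries.

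**Figure D1:**
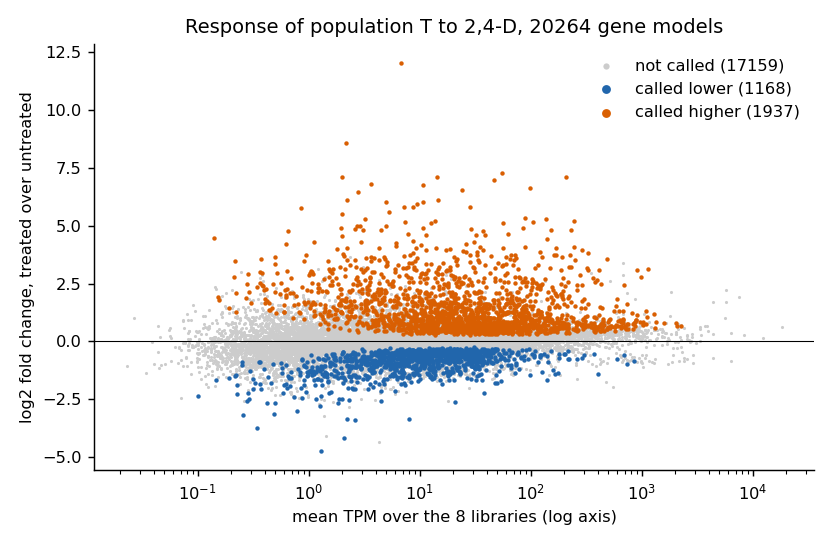
Log2 fold change of each tested gene model in population T (treated over untreated, 4 libraries each) against its mean TPM over the 8 libraries on a log axis. The 1937 genes called higher reach a log2 fold change of 12.02, while the 1168 called lower reach -4.73.

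The 8 libraries separated by treatment along the first principal component, which carried 61.3% of the variance of log2 CPM. Untreated libraries scored -19.5, -67.4, -55.3 and -59.4, and treated ones 8.66, 45.9, 75.5 and 71.5, in the order of their numbers. On this component untreated library 1 and treated library 1 lay closest across the groups, and the preset libraries 3 and 4 lay farthest out. On the second component, with 14.97% of the variance, the former pair stood far apart at 23.4 and -54.1. Treated libraries differed more among themselves than untreated ones, with a median SD of log2 CPM over genes of 0.292 against 0.214 (n = 4 each). Within the pairs the median SD was 0.213 for treated libraries 1 and 2 and 0.197 for 3 and 4 (n = 2 each). A median SD over 2 libraries runs lower than one over 4, so the pair values cannot be set against those of the groups. The response was also read in each library with a gene list called without it. In treated library 1 the 3019 genes called higher from the other 7 libraries had a median log2 change of 0.457 over untreated T, and 85.6% of them were higher. In treated libraries 2, 3 and 4 the medians were 1.11, 1.57 and 1.06 for lists of 1473, 1071 and 1588 genes, with 97.4%, 99.9% and 95.7% higher. Treated library 1 therefore carried the smallest response of the 4, and treated library 3 the largest. Of the untreated libraries, library 1 stood nearest to the treated ones, with a median change of 0.787, against 1.61, 1.35 and 1.38 for libraries 2 to 4. The lists differ between libraries and share the remaining libraries, so these values describe the spread and are no test.

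**Figure D2:**
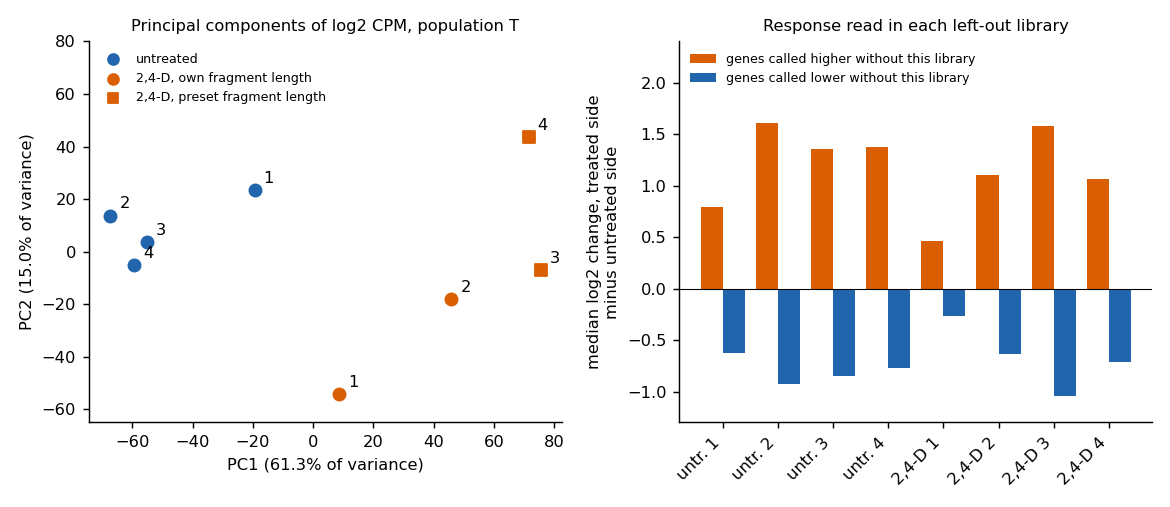
Left, the 8 T libraries on the first 2 principal components of log2 CPM, with squares for the treated libraries that have the preset fragment length. Right, the median log2 change in each left-out library of the genes called higher (orange) or lower (blue) from the other 7, where treated library 1 shows 0.457 and treated library 3 shows 1.57.

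The genes that rose took up a much larger part of the leaf messenger pool after treatment. They held 9.36% ± 0.359 of the assigned reads in untreated T (SD, n = 4) and 18.9% ± 0.289 in treated T (n = 4). Per library the share was 9.61%, 8.83%, 9.48% and 9.54% before treatment and 19%, 18.9%, 19.3% and 18.6% after it. In TPM, which is per length, the share went from 11.1% ± 0.532 to 19.3% ± 0.561. All 4 treated libraries, preset or not, lay close together in these shares, which weigh genes by abundance. The risen gene g44650 held 25066, 3846, 3478 and 11067 CPM in treated libraries 1 to 4. The mean log2 CPM of the risen genes was 4.90, 5.21, 5.40 and 5.15 in these libraries, so close shares do not mean an equal response. The genes that fell held 6.85% ± 0.45 of reads before and 3.72% ± 0.613 after treatment, with treated libraries 1 and 2 at 4.48% and 3.94% and the preset libraries at 3.19% and 3.25%. The genes were chosen on these libraries, so the shares give the size of the shift and are not tested. The 844 risen genes also called without the preset libraries held 3.12% ± 0.124 of TPM before and 7.55% ± 0.793 after (SD, n = 4 each), and the 257 fallen ones 0.954% ± 0.0525 and 0.393% ± 0.0789.

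Calls were not spread evenly over expression levels. Among genes with a mean TPM over 100 across the 8 libraries, 22.02% were called higher and 2.12% lower, of 1558 tested. Between 10 and 100 TPM the shares were 11.96% and 6.44% of 9041. Between 1 and 10 TPM they were 6.10% and 6.68% of 7347, and under 1 TPM 2.80% and 2.67% of 2318. Over genes also called without treated libraries 3 and 4, the shares were 8.47% and 0.706% over 100 TPM, 5.38% and 1.56% at 10 to 100 TPM, 2.80% and 1.35% at 1 to 10 TPM, and 0.863% and 0.259% under 1 TPM. Rises then outnumbered falls in all 4 classes, including 1 to 10 TPM, where falls had been slightly more frequent. Small changes are harder to call at low counts, and the median log2 rise of called genes was 2.10 under 1 TPM and 0.84 over 100 TPM. Of the 174 risen genes with a mean under 1 TPM before treatment, 19 reached 10 TPM or more. Of the 713 risen genes under 10 TPM before treatment, 11 reached 100 TPM or more. None of the 739 fallen genes that began at 10 TPM or more went under 1 TPM. Among the 100 most abundant genes of treated T, 15 had risen and 0 had fallen, though a ranking after treatment favours genes that rose. Among the 100 most abundant of untreated T, 4 had risen and 1 had fallen. The 2 sets of 100 shared 74 genes. The mean TPM that sorts and counts these genes includes the preset libraries. The class mean over the 8 libraries also includes the response itself, so a rise can move a gene up a class and a fall can move it down. Part of the excess of rises at high levels may come from this sorting.

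By the rise in mean TPM, the largest change belonged to g44650, with a coding length of 3477 bases. That rise was 1701 TPM with treated library 1 and 690 TPM without it, against 1359 and 1506 TPM for the next gene. It stood at 507, 1735, 492 and 2264 CPM in the untreated libraries and at 25066, 3846, 3478 and 11067 CPM in the treated ones. The groups did not overlap in CPM, and treated library 1 was far above the rest. In TPM they just met, at 506 in untreated library 4 and 504 in treated library 3. The log2 fold change was 3.12 (SE 0.81, edgeR adjusted p = 0.0343), and without treated libraries 3 and 4 it was 3.53 and not called (edgeR adjusted p = 0.0664). Its call was lost under 11 of 21 alternatives. In S its log2 fold change was -1.41, opposite in sign and not called (edgeR adjusted p = 0.412), and in R it was 2.69 (edgeR adjusted p = 0.0244). Next came g17297, with 1086 bases, at 513, 274, 405 and 282 CPM before and 1610, 2715, 2788 and 3170 CPM after treatment. Every treated library was above every untreated one by a wide margin. Its log2 fold change was 2.80 (SE 0.29, edgeR adjusted p = 0.000367), it was 2.56 without the preset libraries (edgeR adjusted p = 0.00279), and the call held under all 21 alternatives. Reads of both genes were split with other models in all 22 libraries, so their levels are uncertain. In the S libraries alone g17297 had a log2 fold change of 5.90 and narrowly missed the threshold (edgeR adjusted p = 0.0559), and in R it had 1.31 (edgeR adjusted p = 0.145). With all 22 libraries in 1 model its rise in S was 5.91 and was called (edgeR adjusted p = 0.000495). That in R was 1.26 and was not called (edgeR adjusted p = 0.217).

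The largest falls in mean TPM belonged to g38897 (402 bases) and g30112 (453 bases). Gene g38897 stood at 229, 280, 259 and 269 CPM in untreated T and at 220, 153, 116 and 89.6 CPM in treated T. Gene g30112 stood at 254, 311, 321 and 326 CPM before and at 254, 152, 116 and 94.1 CPM after. In both genes treated library 1 lay only just under the lowest untreated library, and the preset libraries 3 and 4 were lowest. The log2 fold changes were -0.84 (SE 0.24, edgeR adjusted p = 0.0465) for g38897 and -0.98 (SE 0.28, edgeR adjusted p = 0.044) for g30112. Without the preset libraries they were -0.47 and -0.58 and neither was called (edgeR adjusted p = 0.161 and 0.168). Each of these calls was lost under 12 of 21 alternatives.

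Called genes with non-overlapping groups were ranked by fold change where their average log2 CPM was 1 or more. The 10 strongest risers were all also called without treated libraries 3 and 4. The first, a model of 1320 bases, had 0 counts in all 4 untreated libraries. It stood at 17.1, 47.2, 21.6 and 13.8 CPM in the treated libraries, at least 690-fold above a floor of 3 counts over the untreated group (edgeR adjusted p = 0.00145). Its reads were split with other models in 4 of the 8 libraries. The second in rank, of 987 bases, went from 0.905 ± 0.542 to 144 ± 54.7 CPM (SD, n = 4 each), a log2 change of 7.30 with an SE of 0.48 (edgeR adjusted p = 7.32e-05). The fifth, of 1803 bases, reached the highest level of the 10. It stood at 15.5, 4, 5.92 and 7.36 CPM untreated and at 1330, 1358, 1485 and 321 CPM treated (log2 fold change 7.10, SE 0.68, edgeR adjusted p = 0.000384). Treated library 4 was lowest for that gene and still more than 20 times the highest untreated library. The sixth, of only 294 bases, went from 0.0675 ± 0.0797 to 9.25 ± 4.39 CPM (edgeR adjusted p = 0.000359).

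The strongest fallers started low. All 10 were under 10 CPM in every untreated library except the eighth in rank, and 5 of the 10 were also called without the preset libraries. The eighth, of 1872 bases, stood at 65.3, 94, 91.7 and 82.6 CPM before and at 23.6, 16.3, 8.42 and 5.15 CPM after treatment (log2 fold change -2.64, SE 0.42, edgeR adjusted p = 0.00523). All treated libraries were well below the untreated ones, and the preset libraries were the lowest of them. The first in rank, of 1071 bases, stood at 1.19, 9.86, 4.33 and 2.91 CPM untreated and at 0, 0.105, 0.659 and 0.217 CPM treated (log2 fold change -4.19, SE 0.91, edgeR adjusted p = 0.0179).

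The most reproducible responses, those with the smallest p-values, were all rises. The first of them, of 621 bases, stood at 10, 10.9, 10 and 9.6 CPM in untreated T and at 133, 162, 182 and 117 CPM in treated T. The untreated libraries differed by little, and every treated library was more than 10 times higher. Its log2 fold change was 3.87 (SE 0.16, edgeR adjusted p = 7.13e-06), and it was 4.59 in the S libraries alone (edgeR adjusted p = 0.000137) and 2.86 in the R libraries alone (edgeR adjusted p = 0.00871). All 10 genes of smallest p were called higher in T without the preset libraries, in S alone and in R alone. Their log2 rises in T ran from 2.39 to 6.64. For the tenth, of 915 bases, the rise was 6.64 in T, 5.998 in S and 2.72 in R, and the difference between T and R was called (log2 difference 3.96, edgeR adjusted p = 0.00971). Called differences from R were also found for the genes ranked 3, 4 and 5 (1.28, 1.71 and 2.02, edgeR adjusted p = 0.0372, 0.00356 and 0.00262), and for none of the 10 from S.

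Genes that rose in T were also measured in S, whose libraries share no sample with T. Of 200 genes called higher in the S libraries alone and tested in both, 178 were also called higher in T, which is 89.0% of the S list and 9.48% of the T list. Among all 18772 genes tested in both, 10.004% were called higher in T and 1.07% in S. The S libraries alone had 1.03% of their own 19895 tested genes called higher and 0.0704% lower, and the R libraries alone 6.25% and 1.78% of 20622. With R, the shared risers numbered 439, which is 40.1% of the R list and 23.2% of the T list, while 9.72% of the 19504 genes tested in both were called higher in T and 5.61% in R. With each population fitted alone, no gene called in T was called in the opposite direction in S, where few genes were called at all. In R, 13 genes that rose in T were called lower, which is 0.686% of those tested there, against 1.88% of all genes. Another 10 that fell in T were called higher in R, 0.868% against 5.61% of all genes. With all 22 libraries in 1 model, 2 genes higher in T were called lower in S and 0 the other way round, and 27 and 16 were opposite in R. That model called 583 genes higher and 104 lower in S, and 2120 and 1590 in R, of 22627 tested. The 844 risers also called without the preset libraries included 84.5% of the S list and 27.6% of the R list. Of 80 genes called higher in both S and R, 74 had also risen in T. Few of the falls were called elsewhere, and only 14 genes tested in both were called lower in S. Of 1130 fallen genes tested in S, 84.0% had a negative log2 fold change there, against 53.3% of all genes, and 8 were called. These 8 are 57.1% of the S list of falls, while 6.02% of all genes tested in both were called lower in T. In R 57.8% of the fallen genes were negative, against 51.7% of all genes, and 29 of 1152 were called. These 29 are 7.92% of the R list of 366 falls, while 5.91% of all genes tested in both were called lower in T. The falls also called without the preset libraries included 28.6% of the S list and 5.46% of the R list.

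The larger the rise in T, the more often the gene was called in the other populations. Genes that rose under 2-fold in T had a median log2 fold change of 0.17 in S and 0.08 in R, and 1.06% and 11.9% of them were called higher there. At 4-fold to 8-fold, 22.7% were called in S and 38.2% in R. At 8-fold to 32-fold these were 40.0% and 54.1%, with median log2 fold changes of 3.57 in T, 2.96 in S and 2.54 in R. Of the 32 genes over 32-fold, 27 could be tested in each of the others, and 19 were called in S and 16 in R. Their median log2 fold changes were 5.99 in T, 6.15 in S and 3.57 in R. Without the preset libraries 30 of the 32 were also called, against 23.1% of the genes under 2-fold. All 190 genes at 8-fold or more stayed called with the 2 other scalings tried. For falls the calls in S were too few to show an order, as 14 of 18772 genes tested in both were called lower there. Of the genes that fell over 4-fold, 0 of 30 tested in S were called. The share with a negative log2 fold change in S was 81.3% under 2-fold, 90.4% at 2-fold to 4-fold and 93.3% over 4-fold. Median log2 fold changes of these 3 groups were -0.20, -0.61 and -1.10 in S, and -0.09, 0.06 and -0.09 in R.

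**Figure D3:**
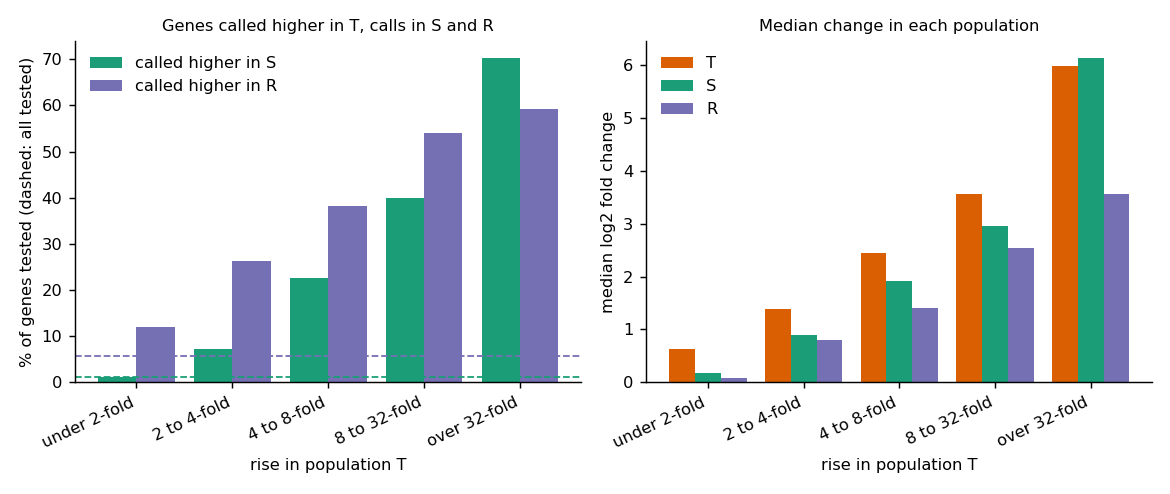
Genes called higher in T, grouped by the size of their rise. Left, the percentage of each group called higher in the S libraries alone or in the R libraries alone, with dashed lines at the share among all tested genes (1.07% and 5.61%). Right, the median log2 fold change of each group in T, S and R, which reaches 5.99, 6.15 and 3.57 in the genes over 32-fold.

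On average per library, the 1937 risen genes stood at a mean log2 CPM of 3.78 ± 0.15 in untreated T (SD, n = 4) and 5.17 ± 0.20 in treated T (n = 4). In S they went from 3.81 ± 0.13 (n = 3) to 4.71 ± 0.28 (n = 4). In R they went from 4.16 ± 0.14 (n = 4) to 5.00 ± 0.46 (n = 3). The untreated R libraries, at 3.97 to 4.29, stood mostly above the untreated T libraries, at 3.63 to 3.98, and the ranges just met. Treated and untreated libraries did not overlap in any of the 3 populations. The 1168 fallen genes went from 4.81 ± 0.09 to 3.93 ± 0.21 in T, from 4.44 ± 0.13 to 4.10 ± 0.22 in S and from 4.51 ± 0.07 to 4.41 ± 0.22 in R, where the groups overlapped. The lists were chosen on the T libraries, so only the S and R values are independent of the choice.

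The response of T was then set against that of S in 1 model over all 22 libraries. Responses differed at 12 genes, 7 higher and 5 lower in T (edgeR quasi-likelihood test, adjusted p under 0.05). These are 0.053% of 22627 tested, 0.0309% higher and 0.0221% lower. An unadjusted p under 0.05 was reached by 2732 genes, and DESeq2 called 365. So few calls do not show that the other genes responded alike. Without treated T libraries 3 and 4 there were 4, and with only the T and S libraries in the model 1. Leaving out untreated T libraries 2, 3 or 4 gave 5, 4 or 7, and leaving out treated T library 3 gave 2. Leaving out untreated S libraries 1 or 2 gave 24 or 5, and treated S libraries 2 or 3 gave 28 or 20. Gene g24578, of 1260 bases, stood at 26.6, 21.4, 26.3 and 25.7 CPM in untreated T and at 78.8, 94.9, 107 and 87.3 CPM in treated T. In S it stood at 35.2, 36.5 and 30.7 CPM before and at 27.8, 26.7, 23.4 and 22.8 CPM after. Every treated library was above the untreated ones in T and below them in S. The log2 difference was 2.32 (SE 0.29, edgeR adjusted p = 0.00226). Split counts were found among its 3 transcript models in all 22 libraries, and which models share the reads was not examined. Gene g29452, of 1392 bases, went from 14.1 ± 3.30 to 71.4 ± 19.3 CPM in T (SD, n = 4 each) and from 4.78 ± 0.0998 (n = 3) to 3.96 ± 1.38 CPM (n = 4) in S (log2 difference 2.61, SE 0.35, edgeR adjusted p = 0.00507). In R it also rose (edgeR adjusted p = 0.00379 in the R libraries alone), from 8.55 ± 1.63 (n = 4) to 30.8 ± 1.87 CPM (n = 3).

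Lower in T than in S was g16826, of 1965 bases, which went from 6.71 ± 1.32 to 5.94 ± 0.757 CPM in T (SD, n = 4 each). In S it rose from 12.1 ± 2.30 (n = 3) to 42.9 ± 15.1 CPM (n = 4), and the log2 difference was -1.996 (SE 0.31, edgeR adjusted p = 0.015). Gene g26783, of 4536 bases, fell in T from 8.18, 7.46, 9.35 and 8.61 CPM to 2.1, 2.8, 1.44 and 1.82 CPM. It was near 0 in S, at 0.337 ± 0.0831 (n = 3) and 0.584 ± 0.227 CPM (n = 4), so that the log2 difference of -2.81 (SE 0.46, edgeR adjusted p = 0.0199) rests on 21 and 47 counts there. In R it stood at 7.14 ± 2.20 (n = 4) and 8.33 ± 1.06 CPM (n = 3), and the fall in T also differed from R (log2 difference -2.26, edgeR adjusted p = 0.00422). Without treated T libraries 3 and 4 neither g16826 nor g26783 was called against S (-1.83 and -2.54, edgeR adjusted p = 0.136 and 0.132).

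Against the resistant population the responses differed at 1916 genes, 1024 higher and 892 lower in T (edgeR adjusted p under 0.05), which is 8.47% of 22627 tested, 4.53% higher and 3.94% lower. The split turned to 783 higher and 1019 lower with RLE scaling, and lower calls also outnumbered higher ones with 9 of 15 single libraries left out. Without treated T libraries 3 and 4 the count was 142, 41 higher and 101 lower. Dropping untreated T library 2, 3 or 4 gave 880, 933 or 911 genes, and dropping treated T library 1, 3 or 4 gave 3595, 957 or 722. Dropping untreated R library 1, 2 or 4 gave 2975, 846 or 949, and dropping treated R library 2 or 3 gave 909 or 1187. The genes with a higher response in T had median log2 fold changes of 0.47 in T and -0.70 in R, and those with a lower response had -0.27 in T and 1.20 in R. In the same model of 22 libraries, which calls more genes in R than the R libraries alone, 297 of the 1024 were called higher in T and 547 lower in R. Of the 892, 236 were called lower in T and 598 higher in R. Gene g22072, of 1236 bases, stood at 133, 97.1, 106 and 102 CPM in untreated T and at 128, 189, 220 and 284 CPM in treated T. In R it fell from 132, 220, 188 and 261 CPM to 56.3, 56.9 and 41.1 CPM. Treated T library 1 lay within the untreated range and the preset libraries were highest. The log2 difference was 2.87 (SE 0.33, edgeR adjusted p = 0.000349) and was called under all 26 alternatives, while the rise in T itself was 0.56 without the preset libraries and not called (edgeR adjusted p = 0.125).

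Lower in T than in R were g2520 and g698. Gene g2520, of 3021 bases, went from 13 ± 1.41 to 7.96 ± 2.52 CPM in T (SD, n = 4 each) and from 12.6 ± 2.86 (n = 4) to 59.4 ± 14.5 CPM (n = 3) in R (log2 difference -2.94, SE 0.33, edgeR adjusted p = 0.000349). Its log2 fold change in the T libraries alone was -0.70 and did not pass (edgeR adjusted p = 0.0709). Gene g698, of 1365 bases, was near silent in T, at 0.352 ± 0.0451 and 0.402 ± 0.268 CPM (SD, n = 4 each), and in S, where the highest library held 0.368 CPM. In R it rose from 0.451 ± 0.209 (n = 4) to 123 ± 86 CPM (n = 3; log2 difference -7.91, SE 0.94, edgeR adjusted p = 0.000455). It was too low in T to be tested with the T libraries alone.

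Gene models with consecutive running numbers often rose together. Of the 1937 risen genes, 22.4% had a neighbour in number that had also risen, against 12.02% of all tested genes. Among genes with no split reads in T the shares were 20.05% and 12.1%. Among fallen genes they were 10.2%, against 7.05% of all tested genes. Over genes also called without the preset libraries, 18.2% of risen genes had such a neighbour, against 5.30% of all tested genes, while for fallen genes the shares were 1.556% and 1.495%. The files do not say whether the numbers follow positions in a genome. The longest run held 7 risen genes, and all 7 have a coding length of exactly 300 bases. They were picked out after their values were seen. Of 24 tested models of 300 bases, 10 had risen and 0 had fallen. Outside the run this leaves 3 of 17 (17.6%), near the 19.1% of all tested models of at most 300 bases, and 9.56% of all tested genes had risen. The models next to the run on either side, of 4758 and 696 bases, were not called (edgeR adjusted p = 0.0845 and 0.19).

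Summed over the 7, the untreated T libraries stood at 28.3, 26.8, 28 and 28.5 CPM and the treated ones at 125, 134, 170 and 123 CPM. The untreated libraries were nearly equal, all treated ones were over 4 times higher, and treated libraries 1 and 2 lay within the range of 3 and 4. Each of the 7 was called higher with and without the preset libraries, with log2 fold changes from 2.01 to 3.31 in the 8 libraries. With RLE and upper-quartile scaling of the 8 libraries all 7 were also called higher, with lowest log2 fold changes of 1.997 and 1.956. The fit without the preset libraries was not repeated with these scalings. Reads were split with other models in 6 of the 7, and which models share them was not examined. Gene g1120, number 5 of the run, stood at 7.91, 8.07, 7.4 and 7.62 CPM before and at 27.6, 36.3, 33 and 26.9 CPM after treatment. Its log2 fold change was 2.01 (SE 0.13, edgeR adjusted p = 2.90e-05). In S the sum went from 10.5 ± 2.36 (SD, n = 3) to 35.1 ± 11.6 CPM (n = 4), and 3 of the 6 genes that could be tested there were called higher. In R it stood at 14.8 ± 3.46 (n = 4) and 13.3 ± 2.30 CPM (n = 3), and none of the 6 tested genes was called. For g1120 the response differed between T and R (log2 difference 2.34, SE 0.32, edgeR adjusted p = 0.0012) and was not called different from S (0.27, SE 0.32, edgeR adjusted p = 0.808). Differences from R were called for 6 of the 7, though the run was chosen on the T response that is part of this difference.

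**Figure D4:**
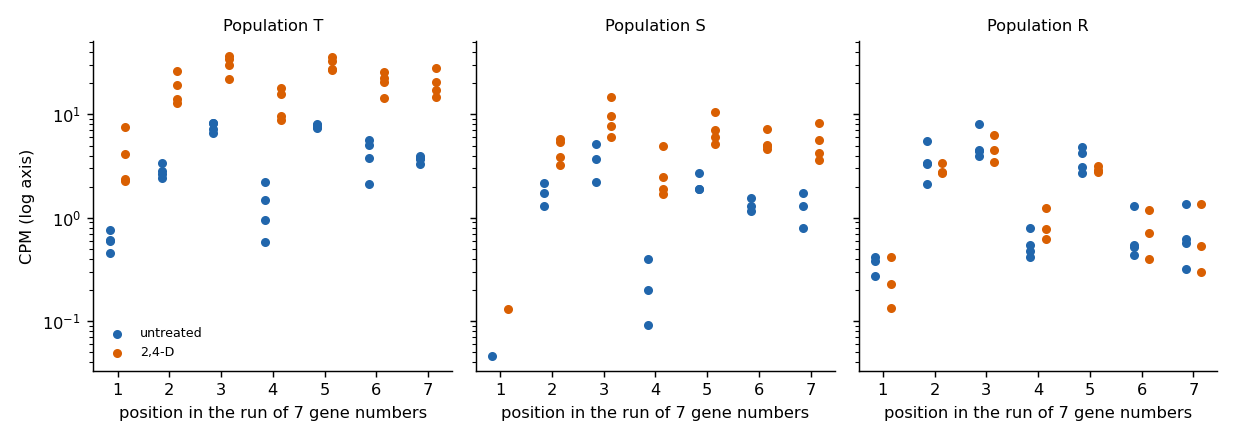
CPM on a log axis of the 7 consecutively numbered 300-base gene models in each library of T, S and R, untreated in blue and treated in orange. Treated values lie above untreated ones for all 7 positions in T and overlap with them at all 7 in R, and 6 of the 154 values are 0 and not drawn.

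Coding length moved with the response in T. The median coding length was 1077 bases for risen genes and 1960.5 for fallen genes, against 1326 for all tested genes. Among models of at most 300 bases 19.1% rose and 0.472% fell, and among those over 2400 bases 4.91% rose and 11.4% fell. Over genes also called without the preset libraries, 6.84% and 0% of the shortest class and 2.21% and 2.13% of the longest were called. Falls then no longer outnumbered rises among the longest models. They were still more frequent there than among all tested genes (1.27%), and rises were less frequent (4.17% of all tested genes). The medians of these genes were 1170 and 1770 bases. The slope of each library on log2 length was taken after subtracting each gene's mean log2 CPM over the libraries of its population. The slopes therefore sum to 0 within a population, and their signs are relative to that mean. They were 0.0652, 0.0814, 0.0846 and 0.0553 per doubling in untreated T, and -0.0441, 0.00159, -0.174 and -0.0696 in treated T. All treated libraries lay below all untreated ones, with preset library 3 lowest. The mean was 0.0716 ± 0.0138 untreated and -0.0716 ± 0.0746 treated (SD, n = 4 each), a difference of -0.143 (2-sided exact permutation test, p = 0.0286, the smallest that 70 arrangements allow). Without treated libraries 3 and 4 the difference was -0.0909, and 15 arrangements cannot reach 0.05 (exact permutation p = 0.0667). In S the untreated slopes ran from -0.0264 to 0.0284 and the treated ones from -0.0307 to 0.0381, and in R the groups overlapped as well. With each library's trend on length removed, 1834 genes rose and 992 fell in T. RNA quality values are not used here, and their part in this trend was not tested.

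**Figure D5:**
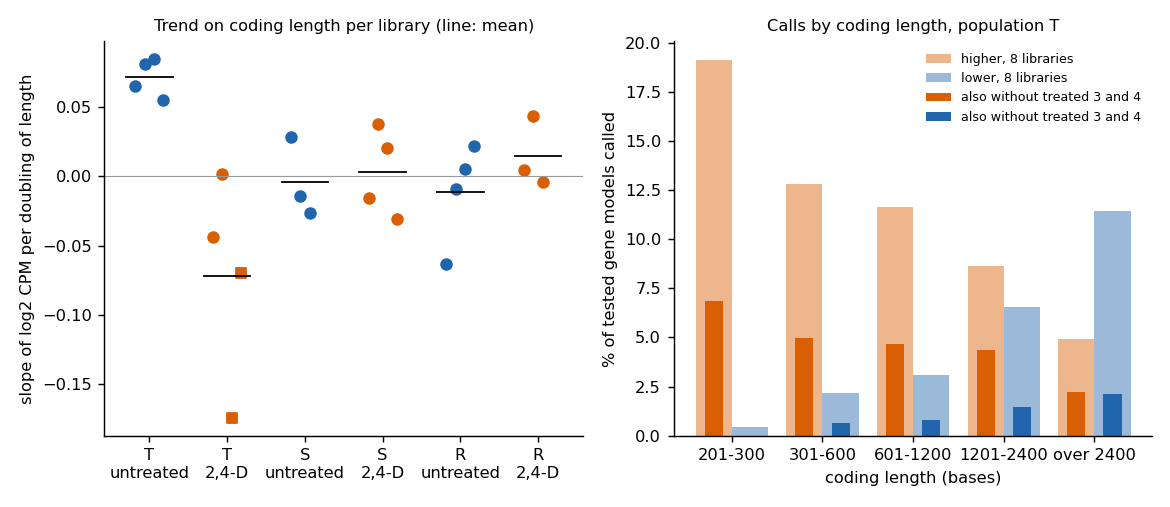
Left, the slope of log2 CPM on log2 coding length in each library, relative to each gene's mean over its population (slopes sum to 0 there), with a line at the group mean and squares for the preset T libraries. Right, the percentage of tested genes called higher (orange) or lower (blue) in T by coding length, pale for all 8 libraries and dark for genes also called without treated libraries 3 and 4, where rises go from 19.1% in the shortest class to 4.91% in the longest.

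Transcript models were also tested singly. Of 21181 tested transcripts, 1745 rose and 955 fell (edgeR adjusted p under 0.05). Among 869 genes with at least 2 tested transcripts, 107 had a called transcript. In 0 of them did 1 transcript rise while another fell. Without treated libraries 3 and 4, 729 transcripts rose and 238 fell of 22040, and in 1 of 49 such genes the transcripts moved in opposite directions. Genes with more than 1 transcript model had risen in 5.77% of 1457 tested cases and fallen in 8.37%, against 9.85% and 5.56% of 18807 genes with a single model. Over genes also called without the preset libraries these were 1.92% and 1.03%, against 4.34% and 1.29%, so that rises were then the more frequent in both. The reads of such genes are split between their transcripts by estimate, and a shift between them that leaves both uncalled would not be seen.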

How the data were processed

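PolyA RNA of leaves was sequenced in 22 libraries. Per the submitters' processing notes, the tools named are Trimmomatic and Salmon; the sources used here give no version, genome build or strand setting. Per the file headers, each deposited file holds for each transcript its length, an effective length, TPM (scaled by effective length) and an estimated count of reads, all made by the authors. Nearly all lengths (47817 of 47916) are multiples of 3 and are called coding lengths.

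Estimated counts were summed over the transcripts of each of 45437 gene models and rounded to whole numbers. Genes were filtered with filterByExpr (20264 kept for T, 25173 removed, 99.89% to 99.91% of reads kept), scaled by TMM and tested with edgeR 4.0.16 in R 4.3.3 (robust quasi-likelihood test, Benjamini-Hochberg over all tested genes, threshold 0.05). The T response used the 8 T libraries. Differences between responses used all 22 libraries with a mean per group. CPM is a count per 1 M reads of the library, scaled by the TMM factors, over the T libraries for genes of the T response and over all 22 libraries for values set beside S and R. SE is the fold change divided by the root of the test statistic. The step was tested on simulated data with known changes. Reads without molecular identifiers are not independent molecules, and a floor of 3 counts covers counting error only. Counts on split transcripts are estimates.

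The comparison, gene classes and tests were chosen with earlier results of these data known. Named genes in T were the called ones with non-overlapping libraries and the largest rises and falls in mean TPM. For differences between responses they were, in each direction, those with the smallest adjusted p at an average log2 CPM of at least 1. The strongest genes by fold and by p, the run of 7 and the grouping by size of rise were added after the data were seen. No marker list was used, since identifiers are unpaired with names. Alternatives were other scalings and filters, DESeq2 1.42.0, a replicate block, removal of the length trend and leaving out libraries. The fits without treated T libraries 3 and 4, without 1 and 2, and with a term for the preset fragment length were added after seeing the data.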

Additional observations from a re-analysis of the deposited data

Results flagged for a closer look

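In groups of 4 samples a value is listed when its gap to the nearest other exceeds Dixon's critical value, which chance alone gives in about 5% of groups. Gene g24578 in untreated T library 2, at 21.4 CPM, lay below the other 3 (25.7 to 26.6 CPM). Gene g2520 in treated S library 3, at 6.71 CPM, lay above the other 3 (4.37 to 4.40 CPM). The mean log2 CPM of the genes that fell in T was 3.77 in 1 treated S library, below the other 3.

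The test of the difference between responses listed the 8 genes named for it. Against S, the log2 differences were 2.32 for g24578, 2.61 for g29452, -1.996 for g16826 and -2.81 for g26783. Against R, they were 2.87 for g22072, 2.34 for g1120, -2.94 for g2520 and -7.91 for g698. The 4 against R were called under every alternative that gave a value (26, 26, 26 and 25 of them). Those against S were called under 24, 23, 20 and 18 of 26.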

How the results depend on the processing

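No fold change of a named gene and no length slope difference changed sign under the alternatives run, but the balance of calls turned in places. The T minus R calls were 1024 higher and 892 lower, and 783 and 1019 with RLE scaling, 1577 and 1879 with DESeq2, 17 and 90 with the replicate block, 11 and 79 with the block and length trend, and 41 and 101 without treated T libraries 3 and 4. The T minus S calls were 7 and 5, and 177 and 188 with DESeq2. With 1 library left out, lower calls outnumbered higher ones in 9 of 15 cases against R and 5 of 15 against S. The T changes of at least 2-fold were 989 and 352, and 1416 and 1469 without treated libraries 1 and 2. The T response counted 4905 genes with DESeq2, 1227 without treated libraries 3 and 4, 6014 without 1 and 2, 1109 with a term for the preset fragment length, and 1344 to 5639 with single libraries left out. At least 2-fold changes numbered 773, 2885 and 741 in those 3 added fits and 848 to 2493 with single libraries left out. The labels do not say whether replicate numbers pair the samples. Deviations from the group means of same-numbered T libraries correlated at -0.487, 0.0517, -0.0903 and -0.20, and 4 such values cannot settle it. With the replicate numbers as a block, T gave 855 calls (664 at least 2-fold), or 778 (611) with the length trend also removed. In the same 2 fits the difference from S gave 1 and 1, and that from R 107 and 90. The difference from S gave 365 with DESeq2, 4 without treated T libraries 3 and 4, 1 with only both populations in the fit, and 2 to 28 with single libraries left out. That from R gave 3456, 142 and 722 to 3595 with DESeq2, without libraries 3 and 4, and with single libraries left out. The length slope difference was -0.0909 without libraries 3 and 4 and -0.167 to -0.106 with single libraries left out; leaving out an untreated library gave an exact permutation p of 0.0571. The causes were not tested. Among called genes under 1 TPM the median log2 change was 2.10 for rises and -1.58 for falls.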
